A study of Bos taurus with 2 samples.

Results

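Clusters 1 and 3 of cultured bovine satellite cells were compared to describe which genes differed between cells in which MYOG mRNA was rare (cluster 1) and cells in which it was common (cluster 3). Cluster 3 held 2034 cells and cluster 1 held 2493 cells, together 4527 of the 19096 cells of the series. The cells of each cluster were identified from the deposited average of every gene in every cluster, which fixed the cluster of each cell without a remaining difference in 252240 pairs of gene and cluster. Satellite cells had been isolated from the skeletal muscle of 1 Holstein bull calf aged 2 weeks and grown for 1 week in DMEM with fetal bovine serum, a growth medium, and no differentiation treatment was given. Single-cell RNA sequencing libraries 1 and 2, called replicates 1 and 2, were both made from these cells with the 10x Genomics 3′ kit, which counts captured RNA molecules by unique molecular identifiers (UMIs). Replicate 1 gave 1115 cells of cluster 3 and 1295 cells of cluster 1, and replicate 2 gave 919 and 1198 cells. The spread between the libraries is therefore technical, and differences between animals were not measured.

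Satellite cells are the stem cells of postnatal skeletal muscle. Once activated they become myoblasts, which express the transcription factors MYF5 and MYOD1 and divide. Myoblasts that start to differentiate switch on MYOG, leave the cell cycle, build the contractile apparatus and fuse into multinucleated fibers. Inhibitors of basic helix-loop-helix factors, such as the ID proteins and the Notch targets of the HEY family, hold this step back in proliferating cells.

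Levels are stated as the number of UMIs of a gene in each 10000 UMIs that 1 library gave for a cluster. The 4 sums behind the comparison held 17178051 and 16616532 UMIs in cluster 1 and 18929219 and 16426808 UMIs in cluster 3. Cells of cluster 3 held more UMIs than cells of cluster 1, with medians of 16171 and 16957 against 12670 and 13243 UMIs in replicates 1 and 2, so that a lower level is a smaller share and not always fewer molecules per cell. Of the 27 barcodes that occurred in both libraries, 12 cells lay in clusters 1 and 3. The highest Scrublet doublet scores marked 76 and 90 cells of cluster 1 and 51 and 43 cells of cluster 3, and these cells were kept. Fold changes were computed with edgeR's quasi-likelihood test on 2 sums against 2, with Benjamini-Hochberg adjustment over all genes tested. The standard error (SE) of a log2 fold change was derived from this test, as its size divided by the square root of the F statistic. The study had formed the clusters from these same UMIs. An adjusted p therefore only says that clusters differed by more than the 2 library preparations did, and it is not independent evidence for a gene that helped to set the clusters apart. Some values come from a fit with the library as a block, which estimates 1 more coefficient from the same 4 sums. Its adjusted p rests on very little residual spread and is not comparable with the others.

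Defining markers of endothelial, immune and fat cells were at or near 0 in both clusters. KDR, SOX10, FOXD3, PTPRC and LEP had no UMI in either cluster, and PECAM1, CDH5, RGS5, CD14, CSF1R and ADIPOQ had at most 6 UMIs in any of the 4 sums. S100B, a glial marker that other cells also use, had 573 to 783 UMIs and did not pass the test but was called higher when the library entered the fit as a block, CD68 had 27 to 37 UMIs, and TEK and PLIN1 had at most 15. The summed level of 3 fibro-adipogenic progenitor markers (PDGFRA, PPARG and ZNF423; fibro-adipogenic progenitors are abbreviated FAP) was 0.192 and 0.199 in cluster 1 and 0.141 and 0.132 in cluster 3, and 2 of the 3 were called lower, but none with DESeq2 or after thinning. Of the pericyte markers, NOTCH3 and CSPG4 were called lower, with summed levels of the 4 markers of 0.552 and 0.607 against 0.133 and 0.151. MCAM and RGS5 had too few UMIs to be tested, and MCAM went the other way, with 4 and 3 UMIs in cluster 1 and 11 and 15 in cluster 3. Without the filter on low counts, 1 of the 4 pericyte markers was called higher. The smooth muscle markers ACTA2, MYH11 and CNN1 summed to 8.24 and 7.32 against 6.07 and 6.16, and ACTA2 and CNN1 were called lower, ACTA2 no longer when cells were assigned by the other gene set as described next. The part of other cell types in the differences described here was not tested.

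Of 11362 genes tested, 2394 were called higher in cluster 3 (21.1%) and 2168 lower (19.1%) at an adjusted p under 0.05. Most differences were small, and 3822 of the 4562 called genes (83.8%) differed less than 2-fold. At least 2-fold differences comprised 246 genes higher in cluster 3 (2.17%) and 494 lower (4.35%). The median log2 fold change of all tested genes was 0.0035. All 4562 called genes had the same sign in both libraries. This is no separate replication, since a gene whose libraries disagreed could hardly pass a test on these same sums. The genes were also divided into a pair of sets, and each cell was assigned anew to the cluster profile that matched it best over the set without the gene under test. With this assignment, 3602 of the 4562 genes were again called in the same direction. The profiles still came from the deposited clusters.

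**Figure D1:**
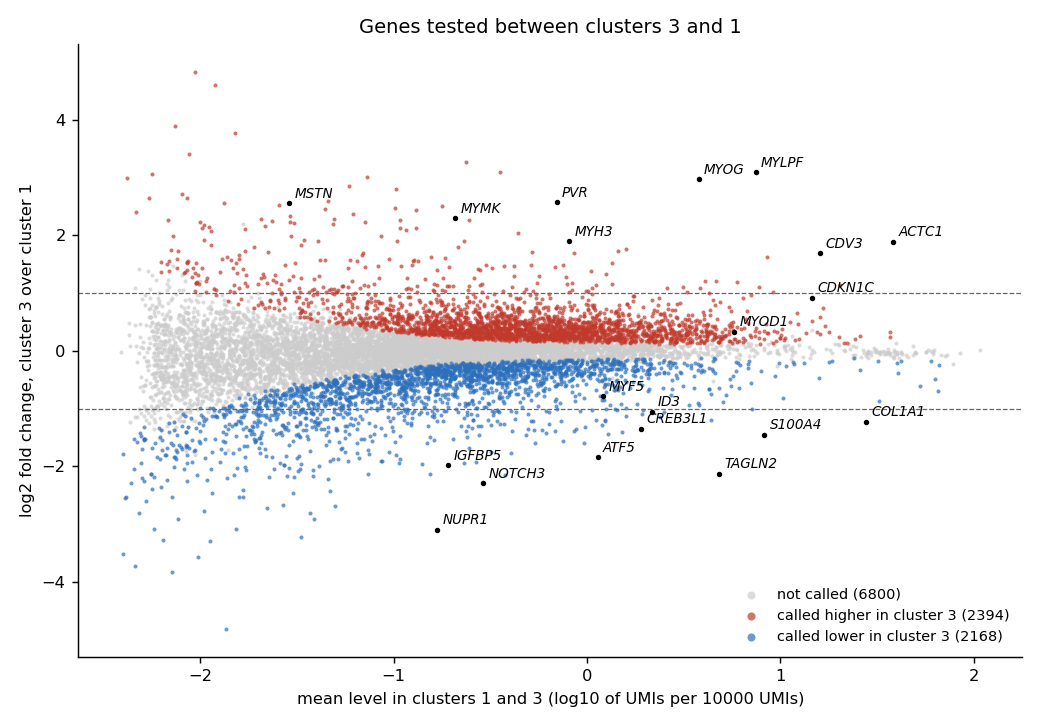
Each point is 1 of 11362 genes tested. The x axis is the mean level in clusters 1 and 3 (log10 of UMIs per 10000 UMIs), the y axis is the log2 fold change of cluster 3 over cluster 1, and dashed lines mark 2-fold differences. MYOG, MYLPF and ACTC1 lie at the upper right, and NUPR1, TAGLN2 and COL1A1 lie below -1.

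Among the myogenic regulators, MYOG had the highest fold change and MYF5 fell. MYOG (ENSBTAG00000006030), the transcription factor that directs terminal differentiation, had levels of 0.804 and 0.950 in cluster 1 and 6.61 and 6.76 in cluster 3. Both libraries of cluster 3 lay far above both of cluster 1, a 7.82-fold difference (log2 2.97 ± 0.08 SE, edgeR adjusted p = 2.96e-06). MYF5 (ENSBTAG00000026972), a determination factor of myoblasts, went the other way, from 1.60 and 1.497 to 0.953 and 0.793, with a log2 fold change of -0.79 ± 0.09 (edgeR adjusted p = 7.06e-04). MYOD1 (ENSBTAG00000002216), the other determination factor, changed little by comparison, from 5.30 and 5.07 to 6.52 and 6.18 (log2 0.33 ± 0.05, edgeR adjusted p = 0.00244).

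Several partners of these factors rose as well. In all, 7 of 12 tested regulators were called higher and 2 lower, against 21.1% and 19.1% of all genes. Their median log2 fold change was 0.30. MEF2A and MEF2D, which activate muscle genes together with MYOG, rose by 0.73 ± 0.05 and 0.94 ± 0.07 on the log2 scale. MEF2C was also called higher, but with 10 UMIs in cluster 1 and 41 in cluster 3. The E proteins TCF12 and TCF3, which pair with MYOD1 and MYOG on DNA, rose by 0.48 ± 0.05 and 0.28 ± 0.06. MYF6, a regulator of later muscle, was called lower, with a log2 fold change of -0.47 ± 0.12, and with 384 and 283 UMIs. The calls of MYF6, MEF2C and TCF3 were lost with DESeq2, and that of MYF6 also when cells were assigned by the other gene set (log2 fold change -0.24). Without the cells richest in cell cycle UMIs, 6 regulators were called higher and 1 lower. Cells assigned without the listed genes gave 7 higher and 1 lower. SIX4 and TCF4 did not pass the test.

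Clusters 8 and 12, which flank clusters 1 and 3 on the study's trajectory, place these levels in a wider range. MYOG stood at 0.107 ± 0.011 (SD, n = 2 libraries) in cluster 8 and at 18.6 ± 0.779 in cluster 12, so that cluster 3 lay between cluster 1 and cluster 12. MYF5 was at 1.57 ± 0.11 in cluster 8, where its libraries overlapped with those of cluster 1, and at 0.574 ± 0.0778 in cluster 12. MYOD1 was at 0.892 ± 0.0137 in cluster 8, highest in cluster 3, and at 3.96 ± 0.187 in cluster 12. MEF2C, barely detected in clusters 1 and 3, was at 0.396 ± 0.00307 in cluster 12.

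**Figure D2:**
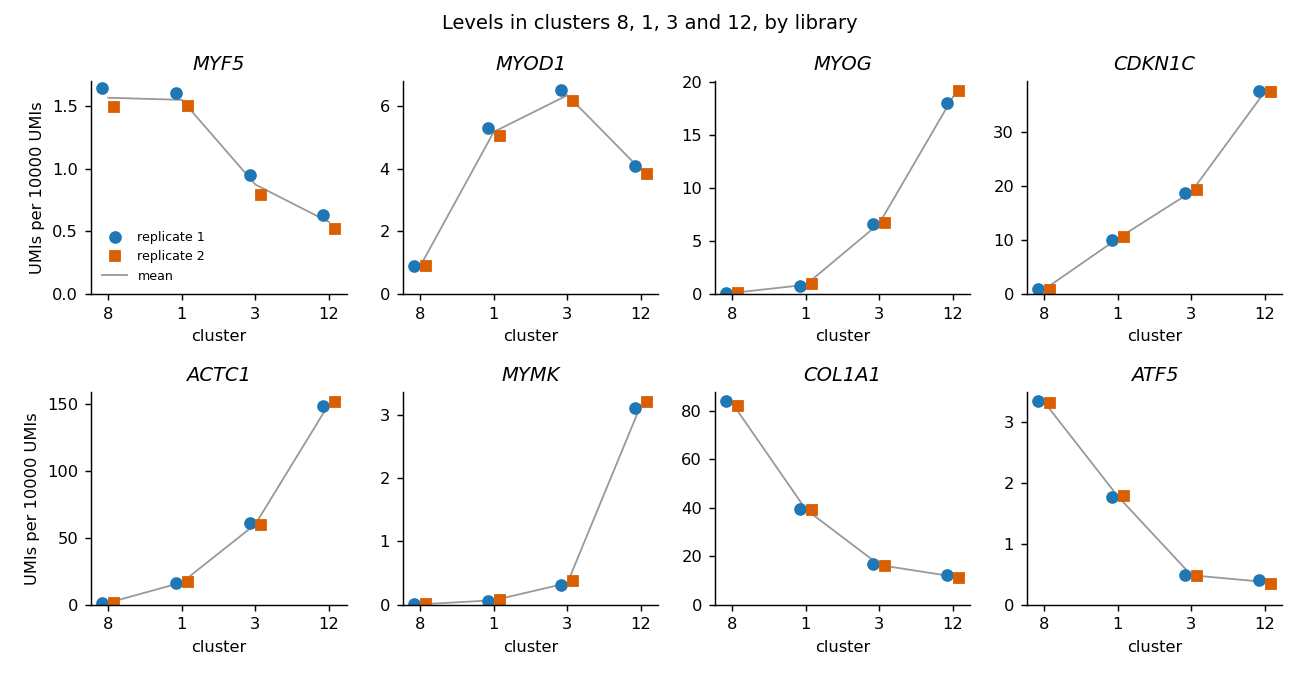
Levels (UMIs per 10000 UMIs, linear axis from 0) of 8 genes in clusters 8, 1, 3 and 12. Points are the single libraries and the line joins their means. MYOG, CDKN1C, ACTC1 and MYMK were highest in cluster 12, MYOD1 was highest in cluster 3, and COL1A1 and ATF5 were lowest in clusters 3 and 12.

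The same MYOG UMIs were also counted per cell, which describes the difference above and is not separate evidence for it. To compare cells at 1 depth, each cell was thinned to 5000 UMIs, which left out 32 cells of cluster 1 and 3 cells of cluster 3. MYOG was then found in 17.8% and 21.5% of the cells of cluster 1 and in 64.2% and 63.3% of the cells of cluster 3 (exact binomial 95% intervals, 15.8 to 20.1% and 19.2 to 23.9% against 61.3 to 67.0% and 60.1 to 66.4%). Such intervals cover counting error only. In cluster 9, which the study calls FAP cells and in which MYOG is not expected, the share was 6.83% and 6.68%. Of the cells of cluster 9, 15.4% and 13.4% had doublet scores among the highest, against 4.57% to 7.51% in clusters 1 and 3, and their part in this share was not tested. In cluster 12 it was 97.7% and 99.0%. Without thinning, the shares were 29.0% and 31.7% in cluster 1, 76.3% and 76.5% in cluster 3 and 24.4% and 22.7% in cluster 9, where the median depth was 22383 and 23601 UMIs.

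**Figure D3:**
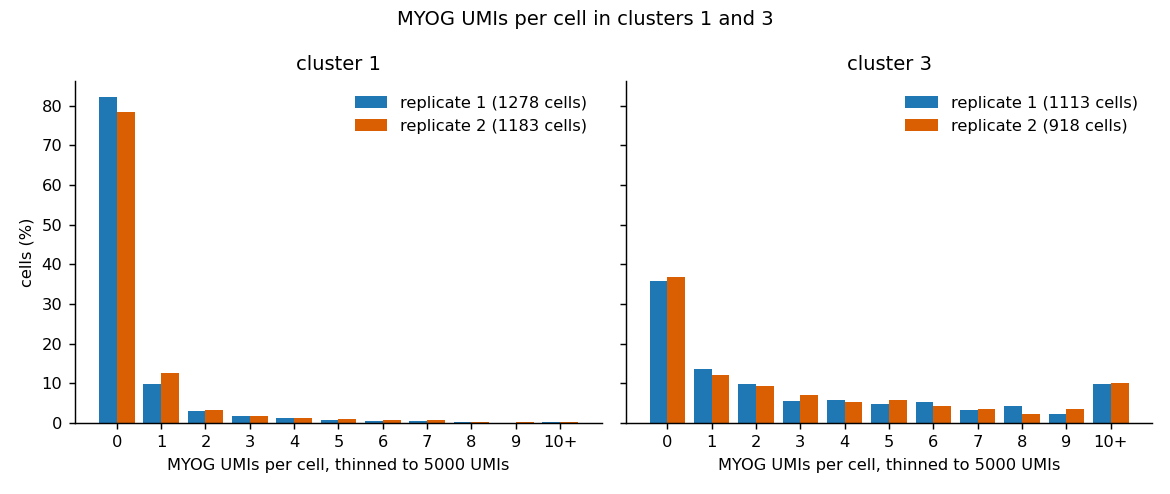
Percentage of cells (y axis) with each number of MYOG UMIs after thinning to 5000 UMIs per cell (x axis, with 10 or more pooled), in clusters 1 and 3 and by library. In cluster 1, 82.2% and 78.5% of cells had none, against 35.9% and 36.7% in cluster 3, where 9.88% and 10.1% of cells had 10 or more.

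Within cluster 3, the cells were not uniform in MYOG. At this depth 35.9% and 36.7% of them had no MYOG UMI, 13.5% and 12.1% had 1, and the rest spread from 2 to 10 or more. MYF5 was found in 46.2% and 44.2% of thinned cells of cluster 1 and in 30.5% and 29.7% of cluster 3, against 4.27% and 4.05% in cluster 9. Cells with both MYF5 and MYOG made up 6.81% and 8.54% of cluster 1 and 15.5% and 16.5% of cluster 3. MYOG without MYF5 was found in 11.03% and 12.93% of cells of cluster 1 and in 48.6% and 46.8% of cluster 3. In both clusters and both libraries, cells with both were fewer than the product of the separate shares, which was 8.25% and 9.49% in cluster 1 and 19.5% and 18.8% in cluster 3.

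Several satellite and progenitor genes were lower in cluster 3, but the summed level of their list was not. Of 14 tested satellite and progenitor genes, 6 were called lower and 2 higher, against 19.1% and 21.1% of all genes. Their median log2 fold change was -0.41. This median was -0.23 without replicate 1 and -0.57 without replicate 2, where any gene with no UMI in a cluster is left out. Without the cells richest in cell cycle UMIs it was -0.22, over 13 tested genes. The set of genes thus changed along with the cells. FGFR4, a fibroblast growth factor receptor of muscle progenitors, stood at 0.977 and 1.01 in cluster 1 and at 0.349 and 0.396 in cluster 3 (log2 fold change -1.38 ± 0.06). HEYL, a Notch target, stood at 0.486 and 0.498 against 0.137 and 0.148 (log2 fold change -1.75 ± 0.07). Neither gene overlapped between clusters. PAX7, the defining factor of satellite cells, had 28 UMIs in cluster 1 and 6 in cluster 3 and was called lower from these few molecules, while PAX3 with 44 and 22 UMIs did not pass the test (edgeR adjusted p = 0.0865, and 0.0163 with the library as a block). The laminin receptor subunit ITGA7 rose by 0.61 ± 0.04, and SDC4 rose by 0.29 ± 0.06, a call that was lost with DESeq2.

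Most inhibitors and repressors of basic helix-loop-helix factors fell. Of 13 tested, 9 were called lower and 1 higher, against 19.1% and 21.1% of all genes. Their median log2 fold change was -0.83. ID3, which sequesters the E protein partners, had levels of 2.97 and 2.94 in cluster 1 and 1.41 and 1.37 in cluster 3 (log2 fold change -1.05 ± 0.05). ID2 stood at 1.38 and 1.49 against 0.687 and 0.686 (log2 fold change -1.02 ± 0.06), and ID4, HEY1, TWIST1, SNAI2, BHLHE40 and BHLHE41 were lower as well. ID1 did not follow its relatives, with 9.51 and 9.84 in cluster 1 and 9.77 and 9.38 in cluster 3. SNAI1, a repressor that binds E boxes, was the gene called higher, by 0.39 ± 0.06.

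Notch receptors and ligands went in both directions, with 4 of 13 tested genes called higher and 4 lower. Of all genes tested, 21.1% were called higher and 19.1% lower, so these counts say little about the list as a whole. The receptor NOTCH3 had levels of 0.466 and 0.503 in cluster 1 and 0.0882 and 0.105 in cluster 3, a 4.91-fold lower value (log2 fold change -2.29 ± 0.09, edgeR adjusted p = 1.10e-05). The ligand JAG1 fell from 0.0745 and 0.0740 to 0.0232 and 0.0146. The ligand DLL1 rose from 0.245 and 0.245 to 0.508 and 0.471 (log2 1.03 ± 0.07), and the receptor NOTCH1 rose by 0.86 ± 0.14. The ligands JAG1 and DLL1 thus differed in opposite directions.

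Genes of the cell cycle moved in both directions. Of 52 tested G2/M genes, 18 were called higher in cluster 3 and 2 lower, against 21.1% and 19.1% of all genes. Their median log2 fold change was 0.20, against 0.0035 for all tested genes. Their summed level was 18.4 and 18.1 in cluster 1, 21.2 and 23.0 in cluster 3 and 15.04 and 15.42 in cluster 12. TUBB4B, a tubulin, rose by 0.81 ± 0.05 and HMGB2, a chromatin protein abundant in dividing cells, by 0.80 ± 0.06, while CENPA, the histone of centromeres, fell (log2 fold change -0.90 ± 0.08). MKI67, with levels of 0.461 and 0.462 in cluster 1 and 0.440 and 0.566 in cluster 3, and CDK1 did not pass the test. With the library as a block, 25 G2/M genes were called higher and 6 lower, MKI67 among the higher (edgeR adjusted p = 0.00749). When the cells above 37.8 UMIs of cell cycle genes per 10000 were left out, 5 G2/M genes were called higher and 8 lower, with a median of -0.10. HMGB2 then no longer passed the test. These cells were picked by the S phase and G2/M genes themselves, with 1 limit for both clusters. Their removal therefore acts on the levels of these genes directly and is no separate check of the G2/M counts.

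S phase genes were called about as often as genes at large. Of 41 tested, 7 were called higher and 10 lower, against 21.1% and 19.1% of all genes, with a median log2 fold change of -0.0016 and summed levels of 10.6 and 10.7 in cluster 1 and 10.6 and 10.9 in cluster 3. RRM1, a subunit of ribonucleotide reductase, rose by 0.50 ± 0.05, POLD3, a subunit of DNA polymerase delta, rose by 0.63 ± 0.07, and WDR76 fell (log2 fold change -1.04 ± 0.13). PCNA, the clamp of DNA polymerases, did not pass the test. The counts of S phase genes moved with the cells used and the tool, with 3 higher and 12 lower without doublets, 4 and 11 without high-UMI cells (above the 95th percentile of their library), 2 and 12 without cycling cells (medians of -0.11, -0.09 and -0.09) and 2 and 3 with DESeq2. The cycling cells were picked by the S phase and G2/M genes, so leaving them out is no separate check of this list. In cluster 12 the summed level of S phase genes was lower, at 6.72 and 7.12.

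Among genes of cell cycle exit, 4 of 14 were called higher and 1 lower, against 21.1% and 19.1% of all genes. The median log2 fold change of this list was -0.0068, and 9 genes were not called. Cells assigned by the other gene set, or without the listed genes, gave 2 higher and 2 lower. DESeq2 gave 2 higher and 1 lower. CDKN1C (ENSBTAG00000031184), the cyclin-dependent kinase inhibitor p57, had levels of 9.95 and 10.6 in cluster 1 and 18.6 and 19.1 in cluster 3 (log2 0.92 ± 0.04, edgeR adjusted p = 2.07e-05). It was already above cluster 8, at 0.857 ± 0.0142, in cluster 1, and was found in 81.7% and 82.9% of thinned cells of cluster 1, in 96.0% and 95.3% of cluster 3 and in 22.9% and 19.0% of cluster 9. GADD45G, a growth arrest gene, rose by 0.81 ± 0.04. CDKN1A, the inhibitor p21, did not pass the test, with 1.69 and 1.68 in cluster 1 and 1.75 and 1.67 in cluster 3, and stood at 9.62 in cluster 12. CCND1, an activating cyclin, was called higher (log2 0.22 ± 0.06). It was not called with DESeq2, with cells assigned by the other gene set or with cells assigned without the listed genes. CCND2 missed the threshold (log2 fold change -0.47 ± 0.16, edgeR adjusted p = 0.0509). It was called lower with the library as a block (log2 fold change -0.47, edgeR adjusted p = 2.76e-41), an adjusted p that rests on very little residual spread. Under 7 other alternatives CCND2 was also called lower (edgeR adjusted p from 0.0196 to 0.0414), but not with DESeq2, library sizes alone or no filter.

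The contractile apparatus had the highest medians of any lists. Over thick filament, thin filament and Z-disc genes, 38 of 46 tested genes were called higher and 2 lower, against 21.1% and 19.1% of all genes. These lists hold 62 genes, and the filter on low counts keeps a gene with enough UMIs in 1 cluster alone. Without this filter, 37 of 59 were called higher and 2 lower, against 2176 and 2097 of all 15467 genes. The median log2 fold change of these 59 was 1.35. At least 2-fold higher were 33 of the 46, against 2.17% of all genes, and their median log2 fold change was 1.66. Their summed level was 83.7 and 84.3 in cluster 1 and 173 and 169 in cluster 3. It remained below cluster 12, where it was 479 and 471. Genes with near-identical copies, such as the actins and myosin heavy chains, are uncertain, because the authors counted uniquely mapped reads and reads that match several copies were left out.

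In the thick filament, 10 of 11 tested genes were called higher and none lower. Under most alternatives, DESeq2 and library sizes alone among them, 9 were called higher, and after thinning 7 of 7 tested. Without the filter on low counts these were 9 of 18 tested, and the median log2 fold change was 1.22 in place of 1.90. MYLPF (ENSBTAG00000021218), the regulatory light chain of fast muscle, had levels of 1.497 and 1.71 in cluster 1 and 13.9 and 12.7 in cluster 3, an 8.52-fold difference (log2 3.09 ± 0.08, edgeR adjusted p = 2.96e-06). MYH3, the embryonic myosin heavy chain, rose from 0.327 and 0.371 to 1.25 and 1.29 (log2 1.90 ± 0.07). The libraries of both genes stood clear of each other between clusters. The light chains MYL4 and MYL1 rose by 2.80 ± 0.15 and 1.45 ± 0.10 from low levels, and the M-band genes MYOM1, MYOM2 and MYOM3 rose by 2.21 to 2.52. The exception, MYLK2, had 34 and 21 UMIs and did not pass the test.

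In the thin filament, 12 of 15 tested genes were called higher and 1 lower. ACTC1, the cardiac alpha actin that developing skeletal muscle also uses, rose from 16.2 and 17.1 to 61.0 and 59.2 (log2 1.89 ± 0.05). ACTA1, the alpha actin of mature skeletal muscle, stood at 0.0722 and 0.127 in cluster 1, at 0.394 and 0.326 in cluster 3 and at 18.8 in cluster 12. The calcium sensors TNNC2 and TNNC1 rose by 1.63 ± 0.04 and 1.72 ± 0.05, TNNI2 by 2.43 ± 0.10 and the filament ruler NEB by 1.21 ± 0.05. Tropomyosins differed among themselves. TPM1 rose by 0.24 ± 0.05, TPM2 did not pass the test with 7.12 and 7.96 against 7.04 and 7.58, and TPM3 fell (log2 fold change -0.35 ± 0.05).

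Of 20 tested Z-disc and sarcomere assembly genes, 16 were called higher and 1 lower, with a median log2 fold change of 1.74. DES, the muscle intermediate filament, rose from 5.10 and 4.93 to 10.8 and 10.2 (log2 1.10 ± 0.05). UNC45B, a myosin chaperone, and KLHL40, which stabilizes thin filament proteins, rose by 2.85 ± 0.21 and 2.26 ± 0.13 from levels under 0.05. PDLIM3, CRYAB, ACTN3, XIRP1 and MYOZ2 were among the others called higher. LDB3 was called lower (log2 fold change -0.73 ± 0.17) but not with DESeq2. ANKRD1 did not pass the test, with 10.3 and 10.1 against 10.5 and 10.7, and was called with the library as a block (log2 0.09, edgeR adjusted p = 1.04e-04).

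Genes of the muscle membrane rose in part. Of 16 tested genes of excitation-contraction coupling, 9 were called higher and none lower, against 21.1% and 19.1% of all genes. Their median was 0.38. STAC3, which links the voltage sensor to calcium release, rose from 0.167 and 0.154 to 0.422 and 0.453 (log2 1.48 ± 0.07), and CAV3, the muscle caveolin, rose by 0.85 ± 0.06. The calcium release channel RYR1 rose by 0.97 ± 0.21 on 88 and 175 UMIs and was not called after thinning, and the voltage sensor CACNA1S, with 22 and 28 UMIs, did not pass the test.

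For the acetylcholine receptor complex, 6 of 10 tested genes were called higher and none lower, against 21.1% and 19.1% of all genes. Their median was 0.32. CHRNG, the gamma subunit of the fetal receptor, rose from 0.704 and 0.714 to 1.98 and 1.97 (log2 1.51 ± 0.05). CHRND, DOK7 and MUSK rose by 1.99 ± 0.15, 1.12 ± 0.07 and 0.86 ± 0.18, and MUSK with 140 and 258 UMIs was no longer called after thinning. CHRNE, the subunit that replaces CHRNG in the adult receptor, had 37 and 25 UMIs and did not pass the test.

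Fusion and adhesion genes were divided, with 5 of 13 called higher and 5 lower, against 21.1% and 19.1% of all genes. MYMK, the membrane protein myomaker required for fusion, rose from 0.0640 and 0.0794 to 0.313 and 0.373 (log2 2.29 ± 0.12, edgeR adjusted p = 2.63e-05). It was found in 2.90% and 3.04% of thinned cells of cluster 1, in 11.7% and 14.5% of cluster 3 and in 71.9% and 67.1% of cluster 12, against 0.683% and 0.405% of cluster 9. The adhesion molecule JAM3 rose by 0.63 ± 0.04 and DYSF, which repairs membranes, by 0.80 ± 0.14. The cadherins CDH11 and CDH2 fell, with log2 fold changes of -1.79 ± 0.23 and -1.04 ± 0.33, though CDH2 rested on 71 and 35 UMIs and was not called with DESeq2, with cells assigned by the other gene set (log2 fold change -0.31) or with cells assigned without the listed genes (log2 fold change -0.65). The tetraspanin CD9 and the metalloprotease ADAM12 fell as well (log2 fold changes -0.62 ± 0.05 and -0.72 ± 0.08).

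Of 11 tested genes of muscle energy supply, 5 were called higher and 3 lower, against 21.1% and 19.1% of all genes. Their median was 0.38. After thinning, 2 of 9 tested were called higher and 3 lower, with a median of 0.12. The median was 0.22 over 14 genes without the filter on low counts. It was 0.19 over 12 genes with cells assigned without the listed genes. FABP3, the fatty acid carrier of muscle, rose from 3.01 and 2.79 to 5.61 and 5.73 (log2 1.00 ± 0.05), and MB, the oxygen store myoglobin, rose by 0.70 ± 0.11 but was not called after thinning. ENO3, the muscle enolase, rose by 0.38 ± 0.06. CKB, the brain-type creatine kinase, fell (log2 fold change -0.50 ± 0.06), and PPARGC1A, a coactivator of mitochondrial genes, fell with 205 and 92 UMIs. CKMT2, the mitochondrial creatine kinase of sarcomeres, had 2 UMIs in cluster 1 and 65 in cluster 3.

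**Figure D4:**
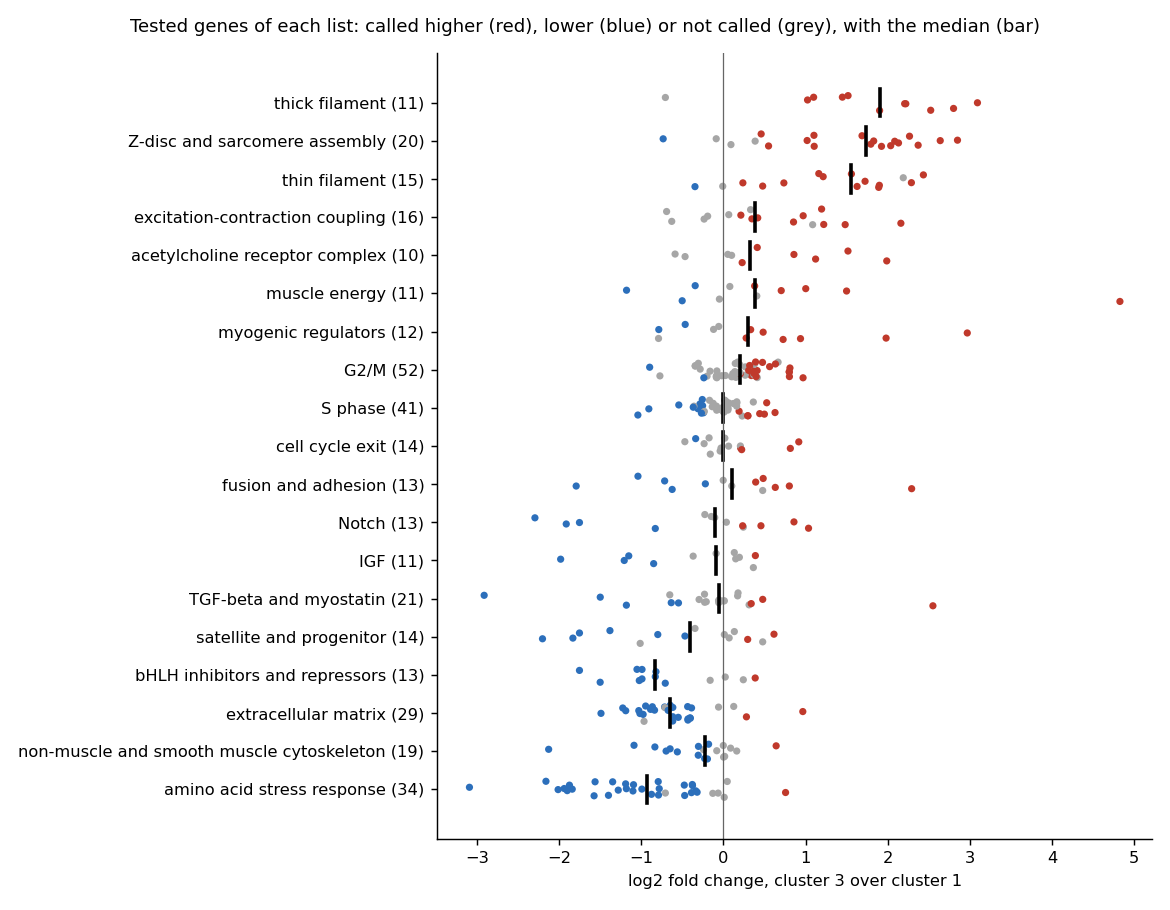
Log2 fold change of cluster 3 over cluster 1 (x axis) for the tested genes of 19 lists (rows, number of tested genes in brackets). Each point is a gene, red where called higher, blue where called lower and grey where not called, and the bar is the median. The 3 lists of the contractile apparatus have medians of 1.56 to 1.90, and the point at the far right is CKMT2, which rests on 2 UMIs in cluster 1.

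Secreted regulators of growth differed gene by gene. MSTN, the myostatin that limits muscle mass, had 29 UMIs in cluster 1 and 175 in cluster 3 (log2 2.55 ± 0.31, edgeR adjusted p = 7.85e-04), and was found in 0.470% and 0.0845% of thinned cells of cluster 1 and in 2.25% and 2.18% of cluster 3. In cluster 9, MSTN was found in 0.512% of cells and in 0 of 494 cells, which allows a share of up to 0.607%. Over the TGF-beta and myostatin list, 3 of 21 tested genes were called higher and 5 lower, against 21.1% and 19.1% of all genes. Their median was -0.06, and with the library as a block 8 were lower. The median was -0.21 without replicate 1, -0.18 without doublets and -0.21 without high-UMI cells. SMAD7, an inhibitor of this pathway, and the type I receptor ACVR1 fell, with log2 fold changes of -1.18 ± 0.13 and -0.64 ± 0.08.

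In the insulin-like growth factor list, 1 of 11 tested genes was called higher and 4 lower, against 21.1% and 19.1% of all genes. The binding protein genes IGFBP5, IGFBP4, IGFBP6 and IGFBP2 fell, with log2 fold changes of -1.98 ± 0.11, -1.21 ± 0.06, -1.15 ± 0.05 and -0.85 ± 0.05. IGFBP5 stood at 2.32 ± 0.0558 in cluster 8, at 0.279 and 0.336 in cluster 1 and at 0.0761 and 0.0755 in cluster 3. IGFBP3 was called higher (log2 0.39 ± 0.04), but was at -0.06 when cells were assigned by the other gene set (edgeR adjusted p = 0.481). IGF2 differed between libraries, with 11.3 and 14.6 in cluster 1 and 14.4 and 18.2 in cluster 3, and missed the threshold (edgeR adjusted p = 0.0622). With the library as a block it was called higher (log2 0.37, edgeR adjusted p = 4.19e-63), an adjusted p that rests on very little residual spread.

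Extracellular matrix genes were lower in cluster 3 with few exceptions. Of 29 tested, 23 were called lower and 2 higher, against 19.1% and 21.1% of all genes. Their median log2 fold change was -0.65, and their summed level was 239 and 241 in cluster 1 and 154 and 154 in cluster 3. COL1A1, a chain of type I collagen, had levels of 39.5 and 39.2 in cluster 1 and 16.8 and 16.1 in cluster 3 (log2 fold change -1.23 ± 0.05, edgeR adjusted p = 1.10e-05), and stood at 83.2 ± 1.44 in cluster 8. COL3A1, FN1 and the cross-linking enzyme LOX had log2 fold changes of -0.87 ± 0.05, -1.02 ± 0.05 and -1.19 ± 0.06, and the laminin chain LAMA4 had -1.49 ± 0.10. The 2 genes called higher were THBS1, the matricellular thrombospondin 1, from 5.12 and 4.60 to 9.40 and 9.09 (log2 0.97 ± 0.06), and CYR61 (log2 0.28 ± 0.04). COL1A1 was found in nearly every thinned cell of both clusters, with 99.0% and 99.1% in cluster 1 and 96.6% and 97.3% in cluster 3.

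The cytoskeleton of non-muscle and smooth muscle cells was lower in part, with 11 of 19 tested genes called lower and 1 higher. Of all genes, 19.1% were called lower and 21.1% higher. The median of the list was -0.23. TAGLN2 (ENSBTAG00000002068), an actin-binding transgelin, fell from 7.63 and 8.12 to 1.68 and 1.84 (log2 fold change -2.13 ± 0.05), which was the lowest log2 fold change of any named gene at 1 UMI per 10000 or more in cluster 1. VIM, the intermediate filament of mesenchymal cells, fell from 80.6 and 83.0 to 49.1 and 49.1 (log2 fold change -0.70 ± 0.04), while the muscle filament DES rose. The cytoplasmic actins ACTB and ACTG1 and the non-muscle myosin MYH9 did not pass the test. With the library as a block, ACTG1 was called higher (log2 0.09, edgeR adjusted p = 1.12e-04) and MYH9 lower (log2 fold change -0.08, edgeR adjusted p = 0.00661). MYH10, another non-muscle myosin, was the gene called higher, by 0.64 ± 0.06.

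Genes of the amino acid stress response, a program under the transcription factor ATF4, formed a list that was put together after ATF5, PSAT1 and others had been seen among the genes that fell, so that its count is a description alone. Of 34 tested, 28 were called lower and 1 higher, against 19.1% and 21.1% of all genes. Their median log2 fold change was -0.94. NUPR1 (ENSBTAG00000018016), a stress-induced chromatin regulator, stood at 0.299 and 0.301 in cluster 1 and at 0.0333 and 0.0353 in cluster 3, which was 8.53-fold lower (log2 fold change -3.09 ± 0.09, edgeR adjusted p = 3.92e-06). ATF5 fell from 1.78 and 1.79 to 0.491 and 0.479 (log2 fold change -1.84 ± 0.05), and ATF4 itself from 5.33 and 5.22 to 3.89 and 4.02 (log2 fold change -0.38 ± 0.04). All 3 enzymes of serine synthesis fell, PHGDH, PSAT1 and PSPH, with log2 fold changes of -1.19 ± 0.05, -1.40 ± 0.06 and -1.10 ± 0.04. TRIB3, SESN2 and DDIT3 fell more than 2-fold, ASNS, the asparagine synthetase, fell less (log2 fold change -0.39 ± 0.04), and ATF3 rose by 0.76 ± 0.07.

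The levels of this list were higher still in cluster 8, where they summed to 55.6 and 56.0, against 37.9 and 38.0 in cluster 1, 21.8 and 22.2 in cluster 3 and 18.1 and 16.9 in cluster 12. Cytosolic aminoacyl-tRNA synthetases, also listed after values were seen, were divided, with 7 of 20 called higher and 7 lower and a median of -0.02. Over all genes tested, 21.1% were called higher and 19.1% lower. WARS and GARS fell (log2 fold changes -1.21 ± 0.05 and -0.95 ± 0.05), and FARSA and VARS rose by 0.63 ± 0.06 and 0.49 ± 0.05. Ribosomal protein genes barely differed, with 4 of 82 called higher, 2 lower and a median of -0.03. With the library as a block 11 were higher and 28 lower, and with library sizes alone 12 were lower.

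Immediate early genes, which respond within minutes to growth factors and to handling of cells, were called higher in 6 of 10 cases and lower in 2. The shares of all genes were 21.1% and 19.1%. The median log2 fold change of this list was 0.26. ATF3, FOSL2, FOS and EGR1 rose by 0.76 ± 0.07, 0.69 ± 0.09, 0.68 ± 0.07 and 0.42 ± 0.04, and JUNB and MYC fell. Of the prostaglandin genes, 2 of 6 were called higher and 3 lower, against 21.1% and 19.1% of all genes. Their median was -0.74. Without replicate 2 it was -0.03, but a median of 1 library leaves out any gene with no UMI in a cluster. The 2 medians therefore need not cover the same genes. PTGER4, a receptor of prostaglandin E2, fell from 167 to 47 UMIs (log2 fold change -1.85 ± 0.23), and PTGIS, the prostacyclin synthase, did not pass the test with 4.88 and 5.08 against 4.63 and 4.98.

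Genes outside the lists were among the strongest differences at levels of at least 1 UMI per 10000. Of the 15 genes with the largest fold change, 7 lay in no list. PVR, a cell adhesion receptor of the nectin-like family, rose from 0.196 and 0.214 to 1.25 and 1.12 (log2 2.57 ± 0.08), behind only MYLPF and MYOG. CDV3 rose from 7.71 and 7.73 to 24.0 and 24.5 (log2 1.69 ± 0.04), FNDC5, the precursor of irisin, by 1.75 ± 0.06 and HSPB2, a small heat shock protein of muscle, by 1.48 ± 0.05. TIPARP, TMEM65 and DIPK2A rose by 1.27 to 1.38.

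Of the 15 genes with the smallest fold change, 8 lay in no list. This count depends on the lists, and that of the amino acid stress response was put together after genes that fell had been seen. S100A4, a calcium-binding protein of motile and fibroblast-like cells, fell from 12.3 and 12.1 to 4.33 and 4.34 (log2 fold change -1.45 ± 0.04). CREB3L1, a membrane-bound transcription factor that drives collagen secretion, fell from 2.80 and 2.70 to 1.11 and 1.00 (log2 fold change -1.34 ± 0.07). EMP3, MKNK2, a kinase of the cap-binding factor eIF4E, GPX7, a peroxidase of the endoplasmic reticulum, METRNL, FILIP1L and SMOC1 had log2 fold changes from -1.60 to -1.22.

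**Figure D5:**
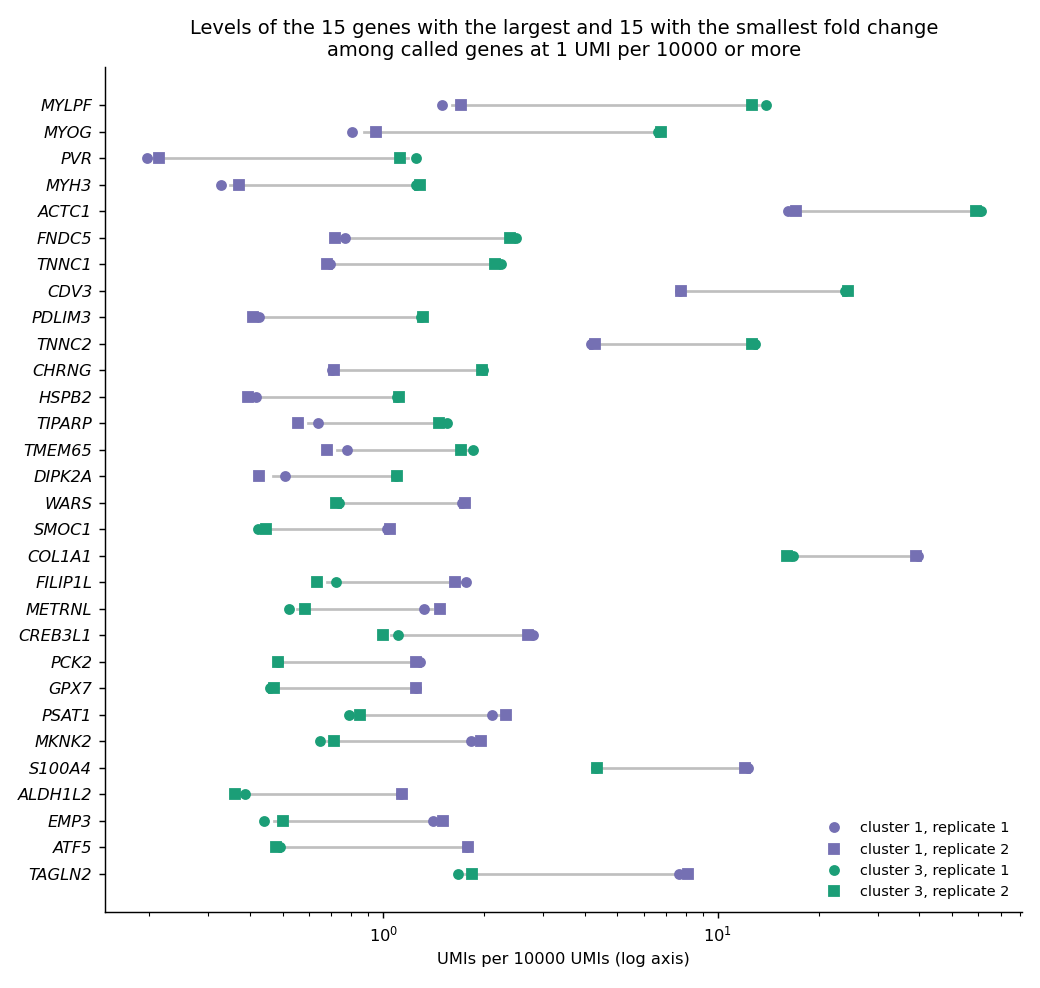
Levels (x axis, UMIs per 10000 UMIs, log axis) of the 15 genes with the largest and the 15 with the smallest fold change among called genes at 1 UMI per 10000 or more. Circles and squares are replicates 1 and 2, and grey lines join the cluster means. The 2 libraries of a cluster lie close together in each gene, and the gap between clusters is what the genes were chosen by.

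Set beside clusters 8 and 12, many of these genes kept 1 direction through all 4 clusters. The order of the clusters is that of the study's trajectory, which was computed from expressed genes of the same cells. The counts below therefore describe that order and are not evidence for it. Levels rose in the order 8, 1, 3 and 12 without overlap of libraries for 885 of 11362 genes (7.79%), and fell in that order for 1529 genes (13.5%). Among the contractile genes, 33 of 46 rose in this order and none fell. In the extracellular matrix list, 19 of 29 fell and none rose, in the bHLH inhibitor list 6 of 13 fell, and in the amino acid stress list 23 of 34 fell. G2/M genes showed no such order, since 3 of 52 rose and none fell, and in the S phase list 11 of 41 fell and 1 rose. MYOD1 and THBS1 were highest in cluster 3 of the 4 clusters, with THBS1 at 2.47 ± 0.0702 in cluster 8 and 8.29 ± 0.0116 in cluster 12.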

How the data were processed

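Alignment to the ARS-UCD1.2 genome and counting of UMIs were done by the authors with Cell Ranger 3.0.2. The deposited counts are whole numbers of UMIs for 21867 genes, of which 5245 have no name, in 19096 cells. A deposited table also gives averages per cluster, used here, and the authors' fold changes and adjusted p-values, not used here. These averages were converted to UMI sums, which fixed each cell's cluster after 30 rounds of elimination. A cell's library was read from its barcode suffix. In joining the libraries, the authors thinned reads until both had an equal mapped depth per cell.

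UMIs were summed per cluster and library and tested with edgeR 4.0.16 after TMM normalization and filterByExpr. On simulated sums of 11362 genes, of which 200 were changed, the test recovered 86.5% of genes changed 2-fold and 70.0% of genes changed 1.5-fold. It also called 8 and 6 unchanged genes. The simulation gave all genes the same spread and did not pair the libraries, so these rates need not hold for the real sums. The library pairs the sums. The log2 difference between libraries in cluster 1 correlated with that in cluster 3 (0.512 over 9886 genes that reached 20 UMIs in every sum). Alternatives were DESeq2 1.42.0, other cell sets and other fits. Doublets were scored with Scrublet in scanpy 1.11.5. Its automatic threshold marked 2 cells, so the highest 8% of scores per library, 1528 cells, were taken, a choice made after this was seen. The members and gene lists were chosen with earlier results of these data known. Named genes are list members and, among named genes called, with 1 sign across libraries and with 1 or more UMIs in 10000 in the higher cluster, the 15 with the largest and the 15 with the smallest fold change. NUPR1 and the amino acid genes were chosen after their values were seen. Mitochondrially encoded genes were not analysed here, and 2 list members are not reported here.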

Additional observations from a re-analysis of the deposited data

How the results depend on the processing

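The comparison was repeated with 12 other fits or cell sets. Between 1611 and 3271 genes were called higher and between 1254 and 3004 lower. With DESeq2 the counts were 1611 and 1254, and the cause of the lower count was not tested. With the library as a replicate block they were 3271 and 3004, and all 4562 genes called without the block were also called in the same direction with it. Leaving out cells under 2000 UMIs removed no cell, since every cell of both clusters held more. Over 162 genes named in the text, 1861 of 1930 values kept their direction and their side of the threshold, and 131 genes did so under every alternative run. The values that kept both include those of the set without cells under 2000 UMIs, which could not differ. A call was lost in 29 values and gained in 26, and 14 values changed sign.

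IGFBP3, called higher, was at -0.0628 with cells assigned by the other gene set. The other sign changes were in genes not called in the comparison, on the log2 scale. ACTB was at -0.0223 with library sizes alone and -0.000538 after thinning, and ID1 at -0.0155 with library sizes alone, -0.0103 with cells assigned by the other gene set and -0.0314 after thinning. CDK1 was at -0.0213 without doublets and -0.106 without cycling cells, CDKN1A at -0.0326 without doublets and -0.0707 with cells assigned without the listed genes, and MKI67 at -0.125 without cycling cells. PTGIS was at 0.0271 without cycling cells and 0.00504 with cells assigned by the other gene set, and TPM2 at 0.00304 after thinning. Calls of ACTA2, BHLHE41, CCND1, CDH2, HMGB2, LDB3, MB, MEF2C, MUSK, MYF6, PDGFRA, RYR1, SDC4, TCF3 and ZNF423 were lost under at least 1 alternative. The block changed the call of no gene of the text other than those given with it above. With 1 library left out, 1 sum stood against 1 and no test was possible. Medians from 1 library leave out any gene with no UMI in a cluster, so they can rest on fewer genes. Both libraries came from 1 calf, which limits every comparison to these cells.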
